A study of Mus musculus with 16 samples.

Results

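The comparison described here adds Tfap2c dsRNA to Tead4 depletion in mouse 8-cell embryos. Embryos that received dsRNA against both Tfap2c and Tead4 as zygotes (double knockdown) were set against embryos that received dsRNA against Tead4 alone (Tead4 knockdown). Each group has 4 libraries, so the comparison uses 8 of the 16 libraries of the series. The other 8 libraries are embryos given Tfap2c dsRNA alone (Tfap2c knockdown) and control embryos given dsRNA against GFP, a jellyfish gene that mice lack (GFP control). The control embryos were thus injected with dsRNA too. Each library is a pool of 10 embryos, about 80 cells, freed of the zona pellucida with acidic Tyrode solution after culture in KSOM medium, and poly-A RNA was amplified by Smart-seq2. In every group 2 libraries come from cross A, whose mothers were C57BL/6J×CBA/J, and 2 from cross B, whose mothers were C57BL/6J×DBA/2J. The labels give the fathers as C57BL/6J×DBA with a substrain number that differs from library to library, and that number was not used. The amounts of dsRNA, the hours after injection, and whether the libraries came from separate matings are not stated in the sources used here, so the p-values measure only how far these pools lie apart. dsRNA lowers a transcript without deleting its gene. Of 43437 genes in the table, 11422 reached 1 FPKM (fragments per kilobase of transcript, scaled to the mapped fragments of the library, so a level already set per length) in at least 4 of the 16 libraries, and these were tested.

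Tfap2c encodes AP-2gamma, a transcription factor that binds GC-rich palindromes. Tead4 encodes a TEAD factor, which binds DNA but needs the coactivators YAP1 or WWTR1, kept out of the nucleus by the kinases of the Hippo pathway. Both factors are known in the mouse embryo for their part in forming the trophectoderm, the outer epithelium of the blastocyst that makes the placenta. At the 8-cell stage the blastomeres flatten on each other and build an apical domain rich in actin and Par proteins, ahead of that choice of fate.

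The libraries of the groups were alike in composition. The summed FPKM per library ran between 799260 and 861278 in the double knockdown and between 826355 and 870000 in the Tead4 knockdown (exact two-sided permutation test, p = 0.6), and the number of genes at 1 FPKM or more between 10277 and 10441 and between 10268 and 10467 in the same groups (p = 0.743, exact permutation test). Genes encoded on mitochondrial DNA held 7.06% to 11.2% of the FPKM in the double knockdown and 7.29% to 10.8% in the Tead4 knockdown. All 10 markers of the 8-cell embryo were measured, and summed to between 10300 and 13300 FPKM in the double knockdown and between 11800 and 13900 FPKM in the Tead4 knockdown. None of 10 cumulus cell markers reached the filter, with sums of at most 0.163 FPKM in double knockdown libraries and 0.14 FPKM in Tead4 knockdown libraries, and Foxl2, Inha, Inhba and Ptx3 listed at 0 in all 16. Of 9 sperm markers none reached it, with sums of at most 1.63 and 1.52 FPKM in the same order of groups. Of 8 blood markers 2 reached it, both alpha-globin genes, and the sum of the list was 40.7 to 77.7 FPKM in the double knockdown and 20.3 to 50.9 FPKM in the Tead4 knockdown, while Hbb-bs, Hbb-bt and Ptprc were listed at 0 in all 16 libraries. Of these globins Hba-a1 passed (0.77 ± 0.26 on the log2 scale, adjusted p = 0.0448 by limma) with overlapping groups. This call was lost without 6 of the 8 libraries, all but double knockdown A2 and Tead4 knockdown A2 (up to 0.124). Hba-a2 did not pass (0.34 ± 0.23). Among further sperm genes Tekt2, a tektin of cilia and flagella, rose (0.95 ± 0.25), although its 4 double knockdown values (18.9 to 59.7 FPKM) overlapped those of the Tead4 knockdown (11.6 to 20.8 FPKM). The part of blood or sperm RNA in the results was not tested. The absolute depth behind these values is unknown. Because each library is a pool, fewer cells that express a transcript and less of it in each cell cannot be told apart.

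The targeted transcripts moved as the labels say. Tfap2c (chr2:172545678-172558622, GRCm38.p6) measured 16.4, 16.1, 16.4 and 15.7 FPKM in the double knockdown libraries A1, A2, B1 and B2, against 37.1, 34.8, 33.7 and 33.4 FPKM in the Tead4 knockdown (per-library values below keep this order). The groups did not overlap, and 46.5% of the Tead4 knockdown level remained (log2 change -1.06 ± 0.11 (SE), exact two-sided permutation p = 0.0286, the smallest that 4 against 4 allows). Tfap2c averaged 15.8 ± 1.65 FPKM in Tfap2c knockdown embryos and 35.7 ± 6.6 FPKM in the GFP control (SD, n = 4 each). Tead4 (chr6:128227143-128300813) measured 8.17, 5.4, 9.62 and 14.8 FPKM in the double knockdown and 8.05, 5.57, 5.99 and 11 FPKM in the Tead4 knockdown, with overlapping values (log2 change 0.24 ± 0.23 (SE), exact permutation p = 0.543). The GFP control had 58.4, 46.5, 47.7 and 41.8 FPKM of Tead4, so Tead4 stood far below the control in both groups of the comparison. With Tfap2c dsRNA alone Tead4 was lower too, at 19, 25.9, 37.4 and 30.8 FPKM in the Tfap2c knockdown, without overlap with the GFP control (-0.79 ± 0.23, adjusted p = 0.0192 by limma).

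Adding Tfap2c dsRNA changed 2712 of the 11422 tested genes (23.7%; limma on log2(FPKM + 1), cross as a covariate, Benjamini-Hochberg adjusted p below 0.05). In the double knockdown 1470 genes were lower (12.9% of those tested) and 1242 were higher (10.9%). More than a 2-fold change on the log2(FPKM + 1) scale was seen for 664 of them, 432 lower and 232 higher. The direction was the same in both crosses for 2710 of the 2712 genes. These genes were called from the same libraries of both crosses, so this agreement follows largely from the selection and is not replication. The 8 libraries did not overlap between groups for 1729 of the called genes, where 18.7% of all tested genes did not overlap. No gene differed between the crosses in its response by limma (0 adjusted calls, 1436 genes or 12.6% at unadjusted p below 0.05), though 109 did without double knockdown B2. Pairs of libraries had r across genes of 0.949 to 0.975 within the double knockdown, 0.954 to 0.974 within the Tead4 knockdown and 0.923 to 0.958 between the groups.

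The same dsRNA given without Tead4 dsRNA is another comparison in the same series. Its groups, the Tfap2c knockdown and the GFP control, share no library with the groups above. In this comparison 3377 genes changed (29.6% of those tested), 1866 higher (16.3%) and 1511 lower (13.2%). Both comparisons called 1806 genes, which is 66.6% of the genes that changed on the Tead4-depleted background and 53.5% of those that changed on the control background. They moved the same way for 1786 of these genes, 940 down and 846 up, and opposite ways for 20. Both comparisons came from the same fit of all 16 libraries, with a shared estimate of the spread and a shared cross term. Their calls are therefore not independent of each other. With each pair of groups fitted alone on its 8 libraries, 1541 genes were called the same way. Over the genes called in both, the median size of the change was 0.73 on the Tead4-depleted background and 0.76 on the control background (log2). The r across all tested genes was 0.65, given as a description because genes are not independent replicates.

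**Figure D1:**
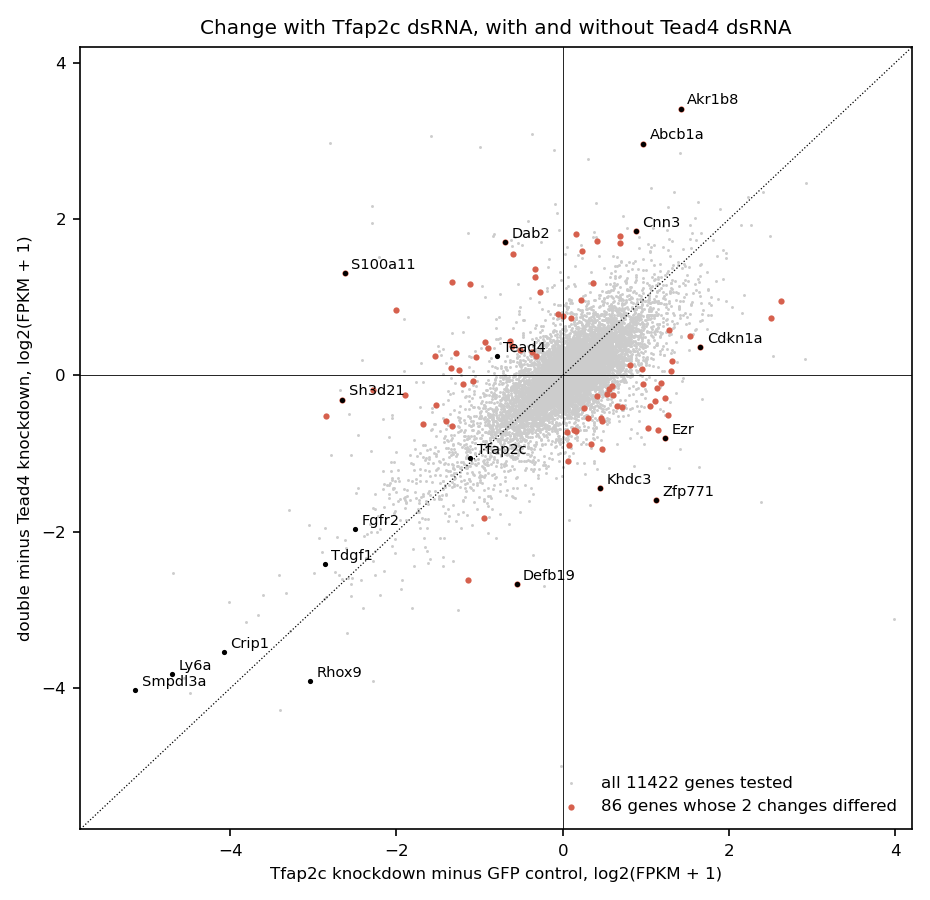
Change of each of the 11422 tested genes when Tfap2c dsRNA was given, on Tead4-depleted embryos (vertical axis, double minus Tead4 knockdown) and on embryos without Tead4 dsRNA (horizontal axis, Tfap2c knockdown minus GFP control), both as differences of log2(FPKM + 1). Red points are the 86 genes whose changes differed, black points are named genes, and the dotted line marks equal change; Smpdl3a, Ly6a and Crip1 lie at the lower left, low on both axes, while Akr1b8, Abcb1a, Dab2 and S100a11 lie above it and Khdc3, Zfp771 and Defb19 below it.

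The genes that Tfap2c dsRNA moved most on its own were followed into the Tead4-depleted embryos. Of 461 genes that were more than 2-fold lower in the Tfap2c knockdown than in the GFP control, 360 (78.1%) were lower in the double than in the Tead4 knockdown, 3 were higher and 98 did not pass. Their median log2 change was -1.08, -1.28, -1.26 and -1.0 in the 4 double knockdown libraries, each measured from the Tead4 knockdown mean of its cross. Of 310 genes that were more than 2-fold higher, 210 (67.7%) were higher, 5 were lower and 95 did not pass, with medians of 0.80, 0.85, 0.94 and 0.73. Every double knockdown library thus lay on the same side for both sets, with A2 and B1 farthest from the Tead4 knockdown among the falls and B2 nearest to it in both sets. The set medians were -1.16 and 0.85 on the Tead4-depleted background, against -1.42 and 1.22 on the control background, where the sets had been chosen.

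**Figure D2:**
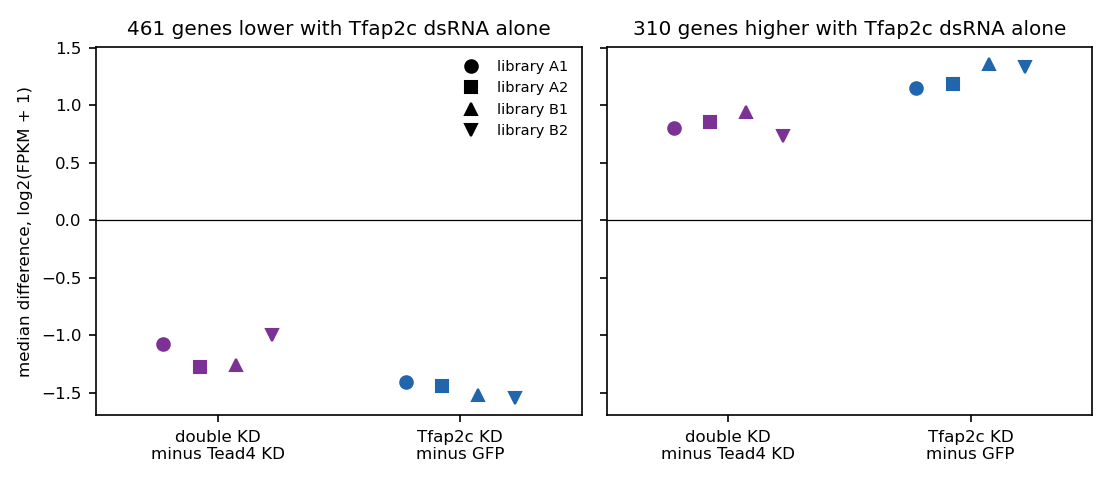
Median log2(FPKM + 1) difference over the 461 genes that were lower and the 310 that were higher by more than 2-fold with Tfap2c dsRNA alone, for each library measured from its reference mean in the same cross. The 4 double knockdown libraries (left in each panel) lie between -1.28 and -1.0 for the first set and between 0.73 and 0.94 for the second; the Tfap2c knockdown libraries (right in each panel) were used to choose the sets.

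The largest falls were of Calm5, Smpdl3a, Rhox9, Dap and Ly6a. Smpdl3a, a phosphodiesterase related to acid sphingomyelinase, measured 7.62, 1.33, 9.12 and 24.4 FPKM in double knockdown embryos, against 94.5, 116, 178 and 181 FPKM in the Tead4 knockdown (log2 change -4.03 ± 0.48 (SE), adjusted p = 3.7e-05). Rhox9, an X-linked homeobox gene, measured 2.93, 0.953, 0.782 and 0.372 FPKM against 39, 39.4, 25.8 and 21.1 FPKM (-3.91 ± 0.24, adjusted p = 1.55e-07). Ly6a, which encodes the surface protein Sca-1, measured 4.59, 1.16, 14.1 and 34.7 FPKM in double knockdown embryos, against 88, 79.5, 168 and 210 FPKM in the Tead4 knockdown (-3.82 ± 0.42, adjusted p = 2e-05). On GRCm38.p6 these genes lie at chr10:57794544-57811830, chrX:37899097-37901770 and chr15:74994877-74998031. None of them overlapped between the groups, and for Smpdl3a and Ly6a the library A2 was the lowest and B2 the highest of the double knockdown. Rhox9 stood higher in the Tead4 knockdown (31.3 ± 9.26 FPKM) than in the GFP control (10.5 ± 3.61 FPKM; SD, n = 4 each), and the double knockdown lay below both at 1.26 ± 1.14 FPKM.

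Other falls among the 10 largest with a mean of at least 5 FPKM in either group were Calm5 (a calmodulin-family gene), Dap, Crip1, Mt4 (a metallothionein), Gprc5a (an orphan receptor induced by retinoic acid) and the secreted Cthrc1, with log2 changes between -4.27 for Calm5 and -3.06 for Cthrc1. None overlapped between the groups. Crip1, a small LIM-domain protein, measured 1.5, 0.864, 2.11 and 16.6 FPKM in double knockdown embryos, against 45.7, 27.5, 53.4 and 63.5 FPKM in the Tead4 knockdown (-3.54 ± 0.42, adjusted p = 3.56e-05). Gprc5a measured 1.75, 0.402, 2.9 and 4.14 FPKM in double knockdown embryos, against 30.7, 29.1, 26.4 and 23.9 FPKM in the Tead4 knockdown, so that for it too, as for Smpdl3a and Crip1, double knockdown A2 was the lowest and B2 the highest. The falls named here were also lower in the Tfap2c knockdown than in the GFP control, by -5.14 for Smpdl3a to -2.60 for Mt4, and none of them passed the test of the difference between the changes. Rhox9 and Ly6a belong to families of similar genes, and the treatment of reads shared by such copies is not given in the sources used here.

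**Figure D3:**
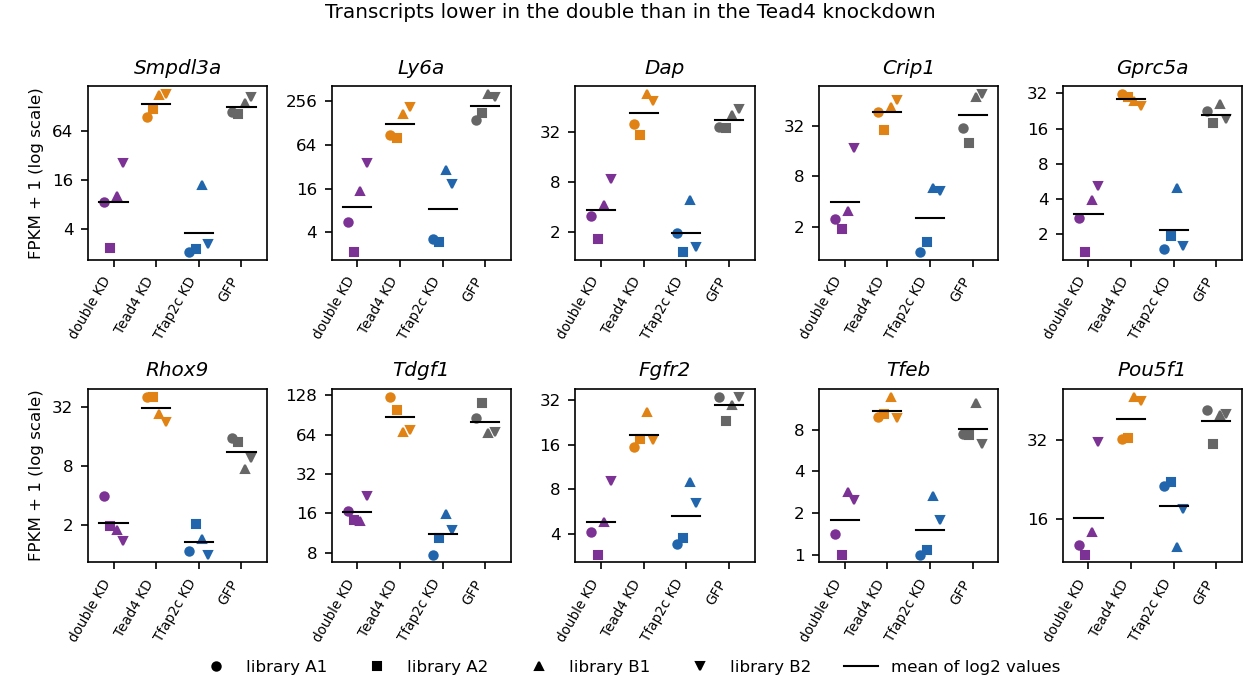
FPKM + 1 (log axis) of 10 transcripts that were lower in the double than in the Tead4 knockdown, one point per library, with the mean of the log2 values as a bar. Double knockdown points lie below all Tead4 knockdown points in every panel and below all GFP control points in every panel but Pou5f1, where double knockdown B2 had 30.5 FPKM and GFP control A2 had 30.02 FPKM.

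The promoter of Crip1 is shown because it alone, of the 4 among these falls with a promoter window, held the AP-2 palindrome. Windows of 250 bases before the annotated start (RefSeq, GRCm38.p6, the assembly called mm10) were searched for GCCNNNGGC, which reads the same on both strands, and for the TEAD element GGAATG on both strands. The AP-2 motif was in 15.4% of the 27025 genes with a window, in 23.0% of the 7536 tested genes with one, in 26.2% of 313 genes more than 2-fold lower and in 17.4% of 138 genes more than 2-fold higher in the double knockdown. The TEAD motif was in 14.4%, 12.4%, 14.4% and 18.1% of the same sets. Of the 20 genes with the largest falls and rises, 12 had a window. The Crip1 window (chr12:113151762-113152011, plus strand) held 3 AP-2 matches, whose first bases lie at positions -223, -142 and -122 from the start, and no TEAD match; matches are in capitals and do not overlap. A match is a description of these letters and not evidence of binding.
Crip1: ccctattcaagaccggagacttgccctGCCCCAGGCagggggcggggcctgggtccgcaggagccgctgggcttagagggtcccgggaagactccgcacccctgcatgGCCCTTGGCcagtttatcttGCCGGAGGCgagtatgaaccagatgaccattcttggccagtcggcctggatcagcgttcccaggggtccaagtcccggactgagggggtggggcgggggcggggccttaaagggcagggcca

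The largest rises were of Akr1b8, Abcb1a and Ctgf. Akr1b8, an aldo-keto reductase, measured 32.4, 29.5, 31.4 and 36 FPKM in double knockdown embryos, against 4.07, 2.83, 1.18 and 1.24 FPKM in the Tead4 knockdown (3.41 ± 0.26, adjusted p = 9.18e-07). Abcb1a, the efflux pump P-glycoprotein, measured 19.1, 15.9, 9.81 and 14.3 FPKM against 1.04, 1.03, 0.422 and 1.56 FPKM (2.97 ± 0.18, adjusted p = 1.55e-07). Ctgf, a secreted matrix protein and a standard target of YAP and TEAD, measured 9.11, 8.73, 7.41 and 4.39 FPKM in double knockdown embryos, against 0.0383, 0.0637, 0.0292 and 0.464 FPKM in the Tead4 knockdown (2.85 ± 0.27, adjusted p = 4.42e-06). The groups were apart for all 3 genes, with mean levels 13.9-fold, 14.6-fold and 49.8-fold higher in the double knockdown, and the Ctgf ratio rests on Tead4 knockdown values close to 0. On GRCm38.p6 they lie at chr6:34354146-34368461, chr5:8567091-8748575 and chr10:24595442-24598683.

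Other rises among the 10 largest were Bex1, Gsta2 (a glutathione transferase), Uchl1 (a ubiquitin hydrolase), Usp17lb (a deubiquitinase of a multicopy family), Pla2g10 (a secreted phospholipase) and Il18 (a cytokine), with log2 changes of 2.22 for Bex1 to 1.89 for Il18. Gsta2 measured 9.07, 10.6, 14.2 and 10.5 FPKM in double knockdown embryos, against 1.77, 1.98, 2.6 and 2.29 FPKM in the Tead4 knockdown (1.93 ± 0.24, adjusted p = 5.86e-05), so its groups were well apart. Uchl1 measured 47, 70.1, 29.5 and 17.9 FPKM against 37.8, 21.9, 1.78 and 2.9 FPKM, and these values overlap because the Tead4 knockdown libraries of cross A were high (1.92 ± 0.47, adjusted p = 0.00781). Usp17lb measured 3.24, 3.09, 52.5 and 25.8 FPKM in the double knockdown and 1.36, 2.85, 2.53 and 2.8 FPKM in the Tead4 knockdown, so that cross B rose by 3.37 and cross A by 0.47 (1.92 ± 0.51 in all, adjusted p = 0.0129). The rises named here were also higher in the Tfap2c knockdown than in the GFP control, by 0.97 for Abcb1a to 2.26 for Gsta2.

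Several of these transcripts were low in the Tead4 knockdown and closer to the control in the double knockdown. Akr1b8 averaged 32.3 ± 2.73 FPKM in the double knockdown, 2.33 ± 1.39 FPKM in the Tead4 knockdown, 58.3 ± 28.3 FPKM in Tfap2c knockdown embryos and 20.7 ± 8.23 FPKM in the GFP control (SD, n = 4 each). For Abcb1a the same means were 14.8 ± 3.87, 1.01 ± 0.466, 38.9 ± 8.49 and 19.2 ± 4.04 FPKM. Cnn3, an actin-binding calponin, averaged 190 ± 15.2 FPKM in the double knockdown, 51.9 ± 0.958 FPKM in the Tead4 knockdown, 274 ± 35.3 FPKM in Tfap2c knockdown embryos and 149 ± 18.9 FPKM in the GFP control. In these 3 genes the Tead4 knockdown lay far below the control, the Tfap2c knockdown above it and the double knockdown between those 2 groups. Against the GFP control the double knockdown was higher for Cnn3 (0.35 ± 0.09, adjusted p = 0.0126 by limma). Akr1b8 (0.71 ± 0.26) and Abcb1a (-0.37 ± 0.18) did not pass this test, though all double knockdown values of Akr1b8 lay above the control values. The Tead4 knockdown libraries are part of both its difference from the control and the change in the double knockdown. No overlap between these differences was therefore computed.

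Promoters of 4 genes that rose are shown for the same motifs, chosen after their values were seen. Cnn3 (chr3:121426291-121426540, plus strand) held 2 AP-2 matches, first bases at -187 and -140. Akr1b8 (chr6:34353896-34354145, plus strand) held 1 AP-2 match at -199. Abcb1a (chr5:8566841-8567090, plus strand) and Amotl2 (chr9:102717554-102717803, plus strand) held no AP-2 match and 1 TEAD match each, at -240 and at -65, both read as CATTCC because the element lies on the opposite strand. The Amotl2 window lies inside the annotated gene (chr9:102717091-102733418), so it precedes a start within the gene and not its first base. Capitals mark the matches.
Cnn3: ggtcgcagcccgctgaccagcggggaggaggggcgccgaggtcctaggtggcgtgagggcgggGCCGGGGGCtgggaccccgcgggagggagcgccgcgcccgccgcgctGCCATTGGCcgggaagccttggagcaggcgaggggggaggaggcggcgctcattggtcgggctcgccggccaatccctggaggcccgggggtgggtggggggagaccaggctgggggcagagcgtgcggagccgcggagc
Akr1b8: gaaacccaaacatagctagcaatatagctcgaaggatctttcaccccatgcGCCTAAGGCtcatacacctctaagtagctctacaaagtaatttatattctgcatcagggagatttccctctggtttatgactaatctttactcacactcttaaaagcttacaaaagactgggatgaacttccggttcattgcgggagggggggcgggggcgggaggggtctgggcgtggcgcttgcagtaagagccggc
Abcb1a: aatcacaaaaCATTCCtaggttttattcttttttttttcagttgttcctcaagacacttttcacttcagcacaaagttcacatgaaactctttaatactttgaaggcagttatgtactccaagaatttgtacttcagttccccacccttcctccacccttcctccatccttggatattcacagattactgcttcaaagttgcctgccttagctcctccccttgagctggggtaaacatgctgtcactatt
Amotl2: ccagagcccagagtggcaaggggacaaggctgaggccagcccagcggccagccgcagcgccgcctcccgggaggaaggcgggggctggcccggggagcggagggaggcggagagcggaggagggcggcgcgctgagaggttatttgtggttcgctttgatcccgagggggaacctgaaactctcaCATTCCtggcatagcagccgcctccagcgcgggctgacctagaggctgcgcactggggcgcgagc

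For 86 genes (0.753% of those tested) the change made by Tfap2c dsRNA differed between the Tead4-depleted and the control background, 44 with a positive and 42 with a negative difference (limma, adjusted p below 0.05; 1369 genes or 12.0% at unadjusted p below 0.05). With the replicate number as a block the count was 36. Leaving out any 1 library other than double knockdown A2, double knockdown B2 or GFP control B1 gave between 12 and 55 genes, with the lowest without GFP control B2. Of the 86, 28 were called on both backgrounds, 23 on the Tead4-depleted background alone and 35 on the control background alone. The calls for Abcb1a, Cdkn1a, Cnn3, Defb19, Khdc3, S100a11, Sh3d21 and Zfp771 held without any 1 of the 16 libraries and with the block, and those for Akr1b8, Clic3, Dab2, Ezr, Fgf3, Igf2bp1, Lin28a, Sac3d1 and Tmem38b were lost in at least 1 of these.

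Among the positive differences, Abcb1a rose by 2.97 ± 0.18 on the Tead4-depleted background and by 0.97 ± 0.18 on the control background (log2; difference 2.00 ± 0.26, adjusted p = 0.00848). Cnn3 rose by 1.85 ± 0.09 and by 0.88 ± 0.09 on the same backgrounds (difference 0.97 ± 0.13, adjusted p = 0.00851). Cnn3 levels were tight: 200, 202, 169 and 187 FPKM in double knockdown embryos, against 53, 51.1, 52.4 and 51.1 FPKM in the Tead4 knockdown. S100a11, a calcium-binding protein of the cell cortex, measured 9.71, 5.85, 20.9 and 68.9 FPKM in the double knockdown, 3, 1.02, 14.1 and 23.3 FPKM in the Tead4 knockdown, 14.3, 13, 23.7 and 27.6 FPKM in the Tfap2c knockdown and 77.6, 55.4, 205 and 237 FPKM in the GFP control. Its change was 1.31 ± 0.39 on the Tead4-depleted background and -2.62 ± 0.39 on the control background (difference 3.93 ± 0.55, adjusted p = 0.00851). The values overlap between the double and the Tead4 knockdown, and the call for the rise itself was lost without double knockdown A1, double knockdown B2 or Tead4 knockdown A2 (adjusted p 0.0125 to 0.0833 over the 8 libraries left out in turn).

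Dab2, an endocytic adaptor of the trophectoderm and the primitive endoderm, measured 13.3, 8.52, 16.9 and 28.4 FPKM in double knockdown embryos, against 3.34, 3.06, 2.2 and 10.2 FPKM in the Tead4 knockdown (1.71 ± 0.30, adjusted p = 0.000821). The groups overlap through Tead4 knockdown B2. Dab2 averaged 45.4 ± 11.4 FPKM in Tfap2c knockdown embryos and 72.9 ± 13.9 FPKM in the GFP control (-0.69 ± 0.30, adjusted p = 0.0964), and the difference between the changes was 2.40 ± 0.42 (adjusted p = 0.0262, and 0.00575 to 0.0626 leaving out 1 library at a time). Sh3d21, an SH3-domain gene named here after its values were seen, was at 0.794 ± 0.569 FPKM in the double knockdown and 1.17 ± 0.344 FPKM in the Tead4 knockdown, with no call, but at 0.425 ± 0.351 FPKM in Tfap2c knockdown embryos and 7.8 ± 1.15 FPKM in the GFP control (difference 2.34 ± 0.24, adjusted p = 0.00112).

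**Figure D4:**
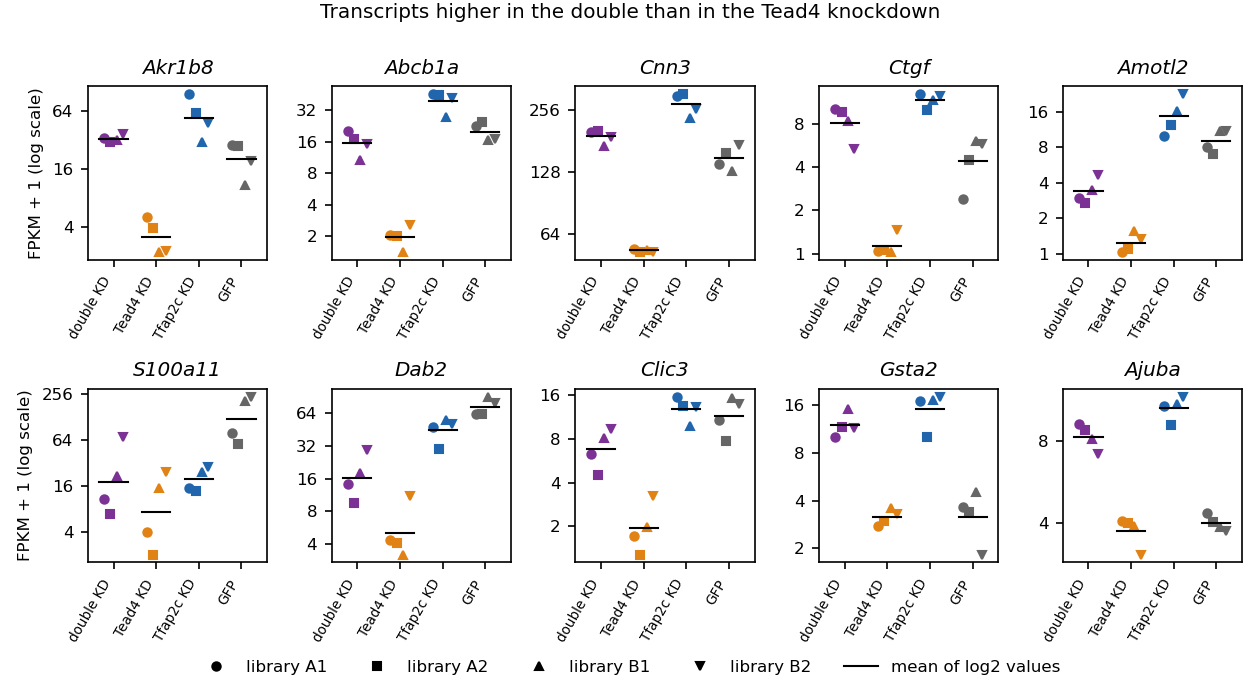
FPKM + 1 (log axis) of 10 transcripts that were higher in the double than in the Tead4 knockdown, one point per library, with the mean of the log2 values as a bar. For Akr1b8, Abcb1a, Cnn3 and Amotl2 every Tead4 knockdown point lies below every point of the other groups, while for Gsta2 and Ajuba every double knockdown point lies above all points of both the Tead4 knockdown and the GFP control.

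Negative differences included genes that stood above the GFP control in the Tead4 knockdown. Khdc3, which encodes the maternal protein Filia, measured 19.8, 26.4, 27.6 and 51.1 FPKM in double knockdown embryos, against 68.3, 55.1, 119 and 98 FPKM in the Tead4 knockdown (-1.44 ± 0.22, adjusted p = 0.000226). It averaged 61.9 ± 9.59 FPKM in Tfap2c knockdown embryos and 45.3 ± 8.73 FPKM in the GFP control (SD, n = 4 each; difference between the changes -1.89 ± 0.30, adjusted p = 0.0225). Zfp771, a zinc finger gene, averaged 1.55 ± 1.29 FPKM in the double knockdown, 6.05 ± 0.623 FPKM in the Tead4 knockdown, 4.73 ± 0.994 FPKM in Tfap2c knockdown embryos and 1.72 ± 0.94 FPKM in the GFP control, so that each dsRNA alone went with a higher level than both together (difference -2.71 ± 0.39, adjusted p = 0.00851). Defb19, a beta-defensin, was listed at 0 in all 4 double knockdown libraries, against 3.63, 7.65, 6.6 and 4.28 FPKM in the Tead4 knockdown. It was listed at 0 in the Tfap2c knockdown as well, and the GFP control had 0.402, 0, 0.749 and 0.907 FPKM (difference -2.11 ± 0.29, adjusted p = 0.00851, a value that depends on the pseudocount of 1 and was not called with a pseudocount of 0.1).

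Of the trophectoderm genes, 22 were measured, of which 9 fell and 2 rose (40.9% lower and 9.09% higher, against 12.9% and 10.9% of all tested genes; median log2 change -0.13, against -0.0 over all). Cdx2, the factor that defines the trophectoderm, stayed below the filter with at most 0.0297 FPKM in the double knockdown and 0.0655 FPKM in the Tead4 knockdown. Gata3, which acts beside it, measured 0.509, 1.5, 1.55 and 3.13 FPKM in the double knockdown and 1.05, 1.08, 1.44 and 3.23 FPKM in the Tead4 knockdown (-0.04 ± 0.30, adjusted p = 0.947). Fgfr2, the receptor through which trophoblast cells answer FGF4, measured 3.14, 1.91, 3.8 and 8.14 FPKM in double knockdown embryos, against 14.4, 16.5, 25.6 and 16.2 FPKM in the Tead4 knockdown (-1.96 ± 0.25, adjusted p = 5.21e-05). Tfeb, known for switching on lysosomal genes and needed in the mouse placenta, measured 0.416, 0, 1.85 and 1.47 FPKM against 8.92, 9.39, 12.8 and 8.76 FPKM (-2.61 ± 0.26, adjusted p = 7.64e-06). The nuclear receptor Esrrb (-1.36 ± 0.16), Klf5 (-1.03 ± 0.17) and the claudin Cldn4 (-1.45 ± 0.24) fell too, each without overlap between the groups. The 2 rises of the list were Dab2 and Id1, a target of BMP signalling. The call for Id1 was lost without double knockdown B1 or Tead4 knockdown A1 or A2 (adjusted p up to 0.0936). Among the 7 measured aquaporin and sodium pump genes of cavitation, Aqp3 fell to 1.99 ± 1.15 FPKM in double knockdown embryos, against 11.3 ± 4.83 FPKM in the Tead4 knockdown (-2.05 ± 0.28, adjusted p = 0.000116), Aqp9 fell (-0.47 ± 0.08) and Aqp11 rose (1.06 ± 0.25). Of these 7 cavitation genes 28.6% were lower and 14.3% higher, against 12.9% and 10.9% of all tested genes. Of 8 measured primitive endoderm genes Dab2, Lamc1 and Sparc rose and Amn fell (37.5% higher and 12.5% lower, against 10.9% and 12.9%). The Sparc call was lost without double knockdown A1 or A2 or Tead4 knockdown B1 or B2 (adjusted p up to 0.0592).

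Pluripotency genes fell more often than they rose: of 35 measured, 13 fell and 3 rose (37.1% and 8.57%, against 12.9% and 10.9% of all tested genes), with a median of -0.31. Pou5f1, which encodes OCT4, measured 11.8, 10.8, 13.3 and 30.5 FPKM in double knockdown embryos, against 31.3, 31.6, 45.8 and 44.1 FPKM in the Tead4 knockdown (-1.26 ± 0.26, adjusted p = 0.0027). The groups did not overlap, though double knockdown B2 came within 1 FPKM of the lowest Tead4 knockdown library. Tdgf1, the Nodal coreceptor Cripto, measured 15.6, 13.1, 13 and 20.5 FPKM in double knockdown embryos, against 124, 97.4, 66.3 and 68.7 FPKM in the Tead4 knockdown (-2.42 ± 0.25, adjusted p = 9.83e-06). Klf4 (-1.05 ± 0.18), Tfcp2l1 (-1.40 ± 0.32), Sox15 (-0.74 ± 0.12), Etv5 (-1.54 ± 0.13) and the ETS factor Spic (-1.46 ± 0.28) also fell. The rises were Fgf4, Lin28a and Klf17. The Fgf4 call was lost without double knockdown A2 or Tead4 knockdown B2 (adjusted p up to 0.0727). Lin28a, an RNA-binding protein that blocks let-7 processing, rose by 0.79 ± 0.12, and Klf17 by 0.79 ± 0.21, whose call was lost without Tead4 knockdown B2 (adjusted p = 0.0513, the highest over the libraries left out). Nanog did not pass, at 11.8, 8.29, 32 and 25.6 FPKM in the double knockdown and 35.1, 50.5, 37 and 19.1 FPKM in the Tead4 knockdown (-0.94 ± 0.34, adjusted p = 0.058), with a log2 difference of -1.98 in cross A and 0.10 in cross B. Sox2 stayed below the filter.

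FGF pathway genes fell more often than they rose. Of 24 measured genes 10 fell and 3 rose (41.7% and 12.5%, against 12.9% and 10.9% of all tested genes; median -0.13), the rises being the ligands Fgf4 and Fgf5 and the adaptor Frs2. None of these rises held throughout. Besides Fgf4, Fgf5 was lost without double knockdown A1 (adjusted p = 0.0514). Frs2 was lost without 6 of the 8 libraries, all but double knockdown B2 and Tead4 knockdown A2 (up to 0.0853). Besides Fgfr2, the receptor Fgfr1 fell to 3.02 ± 0.752 FPKM in double knockdown embryos, against 7.09 ± 1.55 FPKM in the Tead4 knockdown (-1.01 ± 0.23). The feedback inhibitor Spry2 measured 24.4, 15.3, 34.5 and 54.4 FPKM in double knockdown embryos, against 64.1, 73.3, 75.9 and 73.8 FPKM in the Tead4 knockdown (-1.27 ± 0.22, adjusted p = 0.000639), and Spred1, another inhibitor of the pathway, fell as well (-1.38 ± 0.21). Fgf3, a ligand outside the list that was looked up after its values were seen, did not pass, at 15.5 ± 7.4 FPKM in the double knockdown and 14.5 ± 6.54 FPKM in the Tead4 knockdown (0.06 ± 0.15). Of 8 measured Nodal pathway genes 3 fell and none rose by limma (0 at adjusted p below 0.05), 37.5% lower against 12.9% of all tested genes. They were Tdgf1, Smad3 and the Smad partner Foxh1. The call for Smad3 was lost without any 1 of 7 libraries, all but double knockdown A1 (adjusted p up to 0.138), and its groups overlap. Foxh1 was at 0.483 ± 0.411 FPKM in the double knockdown and 2.21 ± 0.564 FPKM in the Tead4 knockdown (-1.13 ± 0.18, adjusted p = 0.000368).

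The Hippo pathway split, with 6 of 23 measured genes up and 6 down (median -0.08). That is 26.1% up and 26.1% down, against 10.9% and 12.9% of all tested genes. Several of these calls did not hold when 1 of the 8 libraries was left out, among them Amot and Tead2 (below). Those for Nf2 and Wwc2 were each lost without 4 of the libraries (adjusted p by limma up to 0.0822 and 0.0645). Map4k4 was lost without 3 and Stk3 without 1 (up to 0.0547 and 0.0528). The transcriptional targets of the pathway rose more often than they fell. Of 9 measured YAP-TEAD targets Ctgf, Amotl2, Ajuba and Lats2 rose and Dock5 fell (44.4% up and 11.1% down), with a median of 0.60. Amotl2, Ajuba and Lats2 are counted in the Hippo list too. Amotl2, an angiomotin that is both a target and an inhibitor of YAP, measured 1.99, 1.68, 2.49 and 3.7 FPKM in double knockdown embryos, against 0.0351, 0.0994, 0.556 and 0.327 FPKM in the Tead4 knockdown (1.45 ± 0.15, adjusted p = 8.48e-06). Its level in the GFP control was 8.27 ± 2.09 FPKM, so the double knockdown reached 29.8% of it. Ajuba, a LIM protein that restrains LATS kinases, measured 8.24, 7.74, 7.1 and 6.16 FPKM in double knockdown embryos, against 3.08, 2.99, 2.92 and 2.07 FPKM in the Tead4 knockdown (1.15 ± 0.12, adjusted p = 1.65e-05). Unlike Amotl2 it stood at 3 ± 0.264 FPKM in the GFP control, below the double knockdown. The kinase Lats2 rose (0.96 ± 0.19) from low levels, 2.44 ± 0.99 FPKM in double knockdown embryos against 0.765 ± 0.47 FPKM in the Tead4 knockdown. Of the 4 measured AP-2 and TEAD factors, Tead1 rose (0.69 ± 0.19) and Tfap2c and Tead2 fell (Tead2 -0.63 ± 0.20), while Tfap2a stayed below the filter. The Tead2 call was lost without 5 of the 8 libraries, all but double knockdown B1 and Tead4 knockdown A2 and B2 (adjusted p up to 0.0881). Of the coactivators, Wwtr1 fell (-0.66 ± 0.10), and Yap1 did not pass (-0.20 ± 0.18, adjusted p = 0.467).

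Of 13 measured apical polarity genes Prkcz, Amot and Ezr fell and Inadl rose (30.8% called, against 23.7% of all tested genes; median -0.31). The call for Amot was lost without double knockdown B1 or Tead4 knockdown B2 (adjusted p up to 0.0535). Prkcz, an atypical protein kinase C of the Par complex, measured 6.44, 7.92, 9.13 and 9.88 FPKM in double knockdown embryos, against 17.1, 12.9, 17.2 and 21.8 FPKM in the Tead4 knockdown (-0.96 ± 0.16, adjusted p = 0.000517). Pard6b, its partner in the complex, averaged 2.4 ± 0.546 FPKM in the double knockdown and 4.05 ± 2.26 FPKM in the Tead4 knockdown and did not pass (-0.46 ± 0.20, adjusted p = 0.1), with a log2 difference of -0.93 in cross B and -0.00 in cross A. Ezr, which links the apical membrane to actin, measured 2.89, 3.49, 10.2 and 5.07 FPKM in the double knockdown and 7.34, 5.64, 13.2 and 13.1 FPKM in the Tead4 knockdown (-0.80 ± 0.26, adjusted p = 0.0386). The groups overlap, and the call was lost without double knockdown A1, A2 or B2 or Tead4 knockdown A1, B1 or B2 (adjusted p 0.00653 to 0.116 over the 8 libraries left out in turn). Rhoa, a GTPase that drives actomyosin, did not pass, at 176 ± 9.25 FPKM in the double knockdown and 205 ± 24.6 FPKM in the Tead4 knockdown (-0.21 ± 0.08, adjusted p = 0.0575).

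Of 50 measured actin regulators 11 fell and 4 rose (30.0% called, against 23.7% of all tested genes; median -0.17). Arpc1b, a subunit of the actin-nucleating Arp2/3 complex, measured 0.858, 0.451, 0.335 and 2.58 FPKM in double knockdown embryos, against 7.61, 6.27, 16.2 and 18.4 FPKM in the Tead4 knockdown (-2.67 ± 0.28, adjusted p = 1.54e-05). The transgelin Tagln2 (-2.37 ± 0.40), the capping protein Capg (-1.60 ± 0.19) and cofilin (Cfl1, -0.43 ± 0.10) fell. Both calponins of the list went the other way, Cnn3 as above and Cnn2 at 4.55 ± 0.578 FPKM in double knockdown embryos against 1.44 ± 0.249 FPKM in the Tead4 knockdown (1.19 ± 0.15, adjusted p = 5.19e-05). Of 16 measured junction genes 2 were lower and 1 was higher, 18.8% called. Cldn4 fell and Cldn6 rose, the second at 17.5 ± 6.94 FPKM in the double knockdown and 8.98 ± 8.38 FPKM in the Tead4 knockdown, mainly in cross B (log2 difference 1.93, against 0.58 in cross A). Of 12 basolateral polarity genes Cab39 rose and Dlg5 fell (16.7% called, below the share of all tested genes). The Cab39 call was lost without 6 of the 8 libraries, all but double knockdown A2 and B2 (adjusted p up to 0.114). No keratin or desmosome gene among 6 passed by limma (0 calls).

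Lysosomal and endocytic genes made up the list of 20 or more measured genes with the most calls for its size. Of 38 measured genes 18 fell and 5 rose (60.5% called, against 23.7% of all tested genes, median -0.29). Among smaller lists, the share called was higher for glutathione transferases and detoxifying reductases (63.2% of 19) and for AP-2 and TEAD factors (75.0% of 4). The list of 19 was drawn up after the values were seen, so its share is only a description. The list of 4 counts Tfap2c, the target of the added dsRNA, and Tead2, whose call was lost without 5 of the 8 libraries. Grn, a lysosomal growth factor precursor, measured 45.1, 43.7, 41.9 and 36.4 FPKM in double knockdown embryos, against 95.5, 112, 81.4 and 81 FPKM in the Tead4 knockdown (-1.12 ± 0.10, adjusted p = 2.65e-06). Ctsh, a cathepsin, measured 27.2, 25.5, 32.5 and 37.7 FPKM against 70.8, 62, 76.3 and 75.7 FPKM (-1.20 ± 0.12, adjusted p = 6.09e-06). The hydrolases Hexa (-1.51 ± 0.18) and Gaa (-1.13 ± 0.16), the saposin precursor Psap (-0.98 ± 0.13), and Ctsa (-0.81 ± 0.10) fell with them. Ctsb stood at 98.4 ± 4.13 FPKM in the double knockdown, 169 ± 12.6 FPKM in the Tead4 knockdown, 77.6 ± 12.7 FPKM in Tfap2c knockdown embryos and 90 ± 4.13 FPKM in the GFP control, the Tead4 knockdown being the highest group. The membrane proteins Lamp1 (0.42 ± 0.09) and Lamp2 (0.49 ± 0.10) and the ceramidase Asah1 (0.75 ± 0.12) rose, so the list did not move as a whole.

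**Figure D5:**
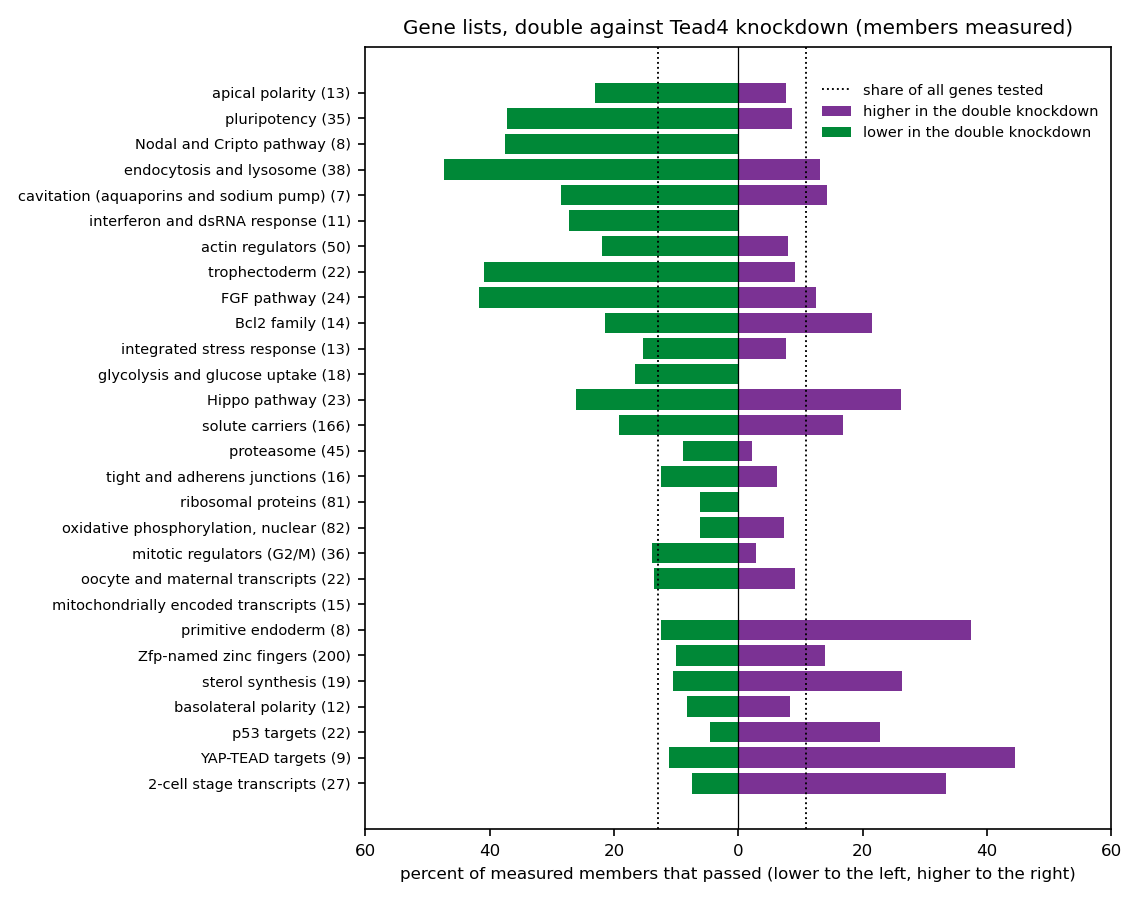
Share of the measured members (number in parentheses) of each gene list with at least 7 of them, leaving out the 8-cell markers and the lists added later, that were lower (green, to the left) or higher (purple, to the right) in the double than in the Tead4 knockdown, ordered by the median log2 change from the lowest at the top. Dotted lines mark the shares over all tested genes, 12.9% lower and 10.9% higher; lysosomal, FGF and trophectoderm genes reach farthest to the left, and YAP-TEAD targets, primitive endoderm genes and 2-cell stage transcripts farthest to the right.

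Metabolic and transport genes moved in part. Of 19 measured sterol synthesis genes 5 rose and 2 fell (median 0.20). Sqle, the squalene epoxidase, measured 50.6, 47.8, 52.8 and 55.4 FPKM in double knockdown embryos, against 26, 22.3, 41.5 and 32.2 FPKM in the Tead4 knockdown (0.78 ± 0.12, adjusted p = 0.000216), without overlap. Fdps (0.94 ± 0.16), Dhcr7 and Fdft1 rose too. Idi1, also an enzyme of the pathway, and Insig1, which holds it back, fell. Both calls were lost without double knockdown B1 or Tead4 knockdown B2, and that for Insig1 also without double knockdown A1 or A2 or Tead4 knockdown A2 (adjusted p up to 0.0572 for Idi1 and 0.0995 for Insig1). In glycolysis 3 of 18 measured genes fell and none rose by limma (0 calls): Hk1, the lactate carrier Slc16a1 and the glucose transporter Slc2a3, at 3.15 ± 0.213 FPKM in the double knockdown and 7.47 ± 1.57 FPKM in the Tead4 knockdown (-1.01 ± 0.15). Solute carriers went both ways (28 of 166 up, 32 down), as did zinc finger genes named Zfp (28 of 200 up, 20 down). Among 82 nuclear genes of oxidative phosphorylation 6 rose and 5 fell. The rises include Cox5a of complex IV (0.89 ± 0.10) and Sdhc (0.98 ± 0.12) and Sdhd (0.78 ± 0.16) of complex II. No mitochondrially encoded transcript among 15 passed by limma (0 calls), and 5 of 81 ribosomal protein genes (all down) and 5 of 45 proteasome genes (4 down) did. The share called was 16.7% for glycolysis, 13.4% for oxidative phosphorylation, 6.17% for ribosomal protein and 11.1% for proteasome genes. These lists and the mitochondrially encoded transcripts thus lay below the 23.7% of all tested genes. Sterol synthesis genes (36.8%) and solute carriers (36.1%) lay above it, and Zfp genes (24.0%) close to it.

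Of 22 measured p53 targets, 5 rose and 1 fell in the double against the Tead4 knockdown (27.3% called, against 23.7% of all tested genes; median 0.32), while 14 rose and 1 fell in the Tfap2c knockdown against the GFP control (median 0.72). Of the 22, 2 passed the test of the difference between the changes, Ier3 and Cdkn1a, the cell cycle inhibitor p21. Cdkn1a measured 236, 186, 518 and 529 FPKM in the double knockdown, 143, 181, 397 and 426 FPKM in the Tead4 knockdown, 266, 207, 465 and 567 FPKM in the Tfap2c knockdown and 56.2, 87.8, 197 and 147 FPKM in the GFP control. Its change was 0.36 ± 0.14 (adjusted p = 0.0825) on the Tead4-depleted background and 1.66 ± 0.14 (adjusted p = 1.98e-06) on the control background, and the difference was -1.29 ± 0.20 (adjusted p = 0.0192). The control thus stood lowest within each cross, and each knockdown group was above it. The call for the difference of Ier3 was lost without 14 of the 16 libraries, all but double knockdown B1 and Tfap2c knockdown B2 (adjusted p up to 0.0884). Sesn1 (0.51 ± 0.11), Trp53inp1 (0.75 ± 0.17) and Rrm2b (0.94 ± 0.22) rose on the Tead4-depleted background, as did Ei24 and Mdm2. Ei24 was lost without double knockdown A1 or Tead4 knockdown B1 or B2 (adjusted p up to 0.0735). Mdm2 was lost without double knockdown A1 or A2 or Tead4 knockdown B1 (up to 0.0944). Perp, a p53 target and a desmosome-linked membrane protein, fell to 9.93 ± 7.03 FPKM in double knockdown embryos, against 45.8 ± 27.2 FPKM in the Tead4 knockdown (-2.08 ± 0.25, adjusted p = 3.79e-05).

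In the Bcl2 family 3 of 14 measured genes rose and 3 fell (42.9% called, against 23.7% of all tested genes). The pro-apoptotic Bad measured 23.6, 16.6, 24.8 and 18.1 FPKM in double knockdown embryos, against 59.7, 60.2, 62.1 and 48.6 FPKM in the Tead4 knockdown (-1.44 ± 0.15, adjusted p = 1.02e-05), and Bcl2l14 (-1.0 ± 0.12) and the pro-apoptotic Bcl2l11 (-0.70 ± 0.19) fell as well. The protective Bcl2l1 measured 6.53, 5.99, 7.49 and 5.48 FPKM in double knockdown embryos, against 3.29, 2.75, 2.66 and 1.89 FPKM in the Tead4 knockdown (1.02 ± 0.14, adjusted p = 0.000131), close to its 5.86 ± 0.679 FPKM in the GFP control, and Bcl2l13 (0.82 ± 0.11) and the pro-apoptotic Bid rose. The Bid call was lost without double knockdown A1 or B1 or Tead4 knockdown A1 or B2 (adjusted p up to 0.0632). Among 11 measured genes of the interferon and dsRNA response 3 fell and none rose by limma (0 calls), 27.3% in all and so near the 23.7% of all tested genes. Irf9, part of the interferon-activated factor ISGF3, measured 1.7, 0.97, 2.04 and 2.78 FPKM in double knockdown embryos, against 12.8, 11.1, 16.3 and 17.5 FPKM in the Tead4 knockdown (-2.44 ± 0.15, adjusted p = 1.55e-07), and Ifitm2 (-1.16 ± 0.24) and the adaptor Mavs fell. The Mavs call was lost without 6 of the 8 libraries, all but double knockdown A1 and Tead4 knockdown B2 (adjusted p up to 0.111). Of 13 genes of the integrated stress response 3 passed, 23.1% and so close to that share: Psat1 rose and Slc3a2 and Nupr1 fell. The calls for Slc3a2 (all but double knockdown A2 and Tead4 knockdown A2) and Nupr1 (all but double knockdown B1 and Tead4 knockdown B1) were lost without 6 of the 8 libraries, with adjusted p up to 0.129 and 0.155. Of 36 mitotic regulators 5 fell and 1 rose, 16.7% called and so below the 23.7% of all tested genes. Fbxo5, the inhibitor of the anaphase-promoting complex called EMI1, measured 26.1, 27.6, 33 and 40.7 FPKM in double knockdown embryos, against 58.1, 58.3, 87.6 and 86.7 FPKM in the Tead4 knockdown (-1.16 ± 0.08, adjusted p = 8.39e-07 by limma). The centromeric histone Cenpa (-0.88 ± 0.17), Birc5, Mad2l1 and Cdc25a also fell, while Top2a rose. The call for Mad2l1 was lost without double knockdown A2 or B2 or Tead4 knockdown A2 or B1 (adjusted p up to 0.109). That for Cdc25a was lost without every library but double knockdown B1 (up to 0.135).

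Transcripts typical of the 2-cell stage rose more often than they fell, with 9 of 27 measured genes up and 2, Eif1a and Pramel5, down (40.7% called, against 23.7% of all tested genes; median 0.68). Gm5662 measured 4.11, 1.66, 124 and 74.8 FPKM in the double knockdown and 1.54, 2.06, 9.76 and 7.8 FPKM in the Tead4 knockdown (1.86 ± 0.54, adjusted p = 0.0216), with a log2 difference of 3.32 in cross B and 0.40 in cross A. Tcstv3 measured 5.62, 4.43, 63.4 and 12.9 FPKM against 2.06, 2.06, 1.21 and 8.55 FPKM (1.84 ± 0.51, adjusted p = 0.017). Both belong to multicopy families, their groups overlap, and both calls were lost without a single library of cross B (Gm5662 without double knockdown B1 or B2 or Tead4 knockdown B1 or B2, adjusted p up to 0.0729; Tcstv3 without double knockdown B1 or Tead4 knockdown B1, up to 0.0555). The calls for Usp17lc and Obox3 were lost without 6 and 5 of the 8 libraries (adjusted p by limma up to 0.155 and 0.0973). Zfp352 rose in both crosses (1.22 in A, 1.12 in B), at 4.29, 2.44, 36 and 12.3 FPKM in the double knockdown and 1.49, 0.339, 9.55 and 8.85 FPKM in the Tead4 knockdown. Other genes of the list rose too, such as Zfp809 (1.14 ± 0.13), Ddit4l (0.92 ± 0.14) and Sp110 (0.64 ± 0.12). Without the cross as a covariate the calls for Gm5662, Tcstv3, Zfp352, Ddit4l and Sp110 were lost. Among 22 oocyte and maternal transcripts 2 rose and 3 fell, 22.7% called and so near the 23.7% of all tested genes. Npm2 (0.71 ± 0.17) and Uchl1 rose and Khdc3, Padi6 and Dppa3 (-0.31 ± 0.07) fell, with Dppa3 no longer called after quantile normalization. Padi6 was no longer called without double knockdown A1 or B2 or Tead4 knockdown B2 (adjusted p up to 0.0696). The fall of Pramel5 was lost without double knockdown B1 or Tead4 knockdown B1 or B2 (up to 0.0812).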

How the data were processed

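FPKM values per gene for 16 libraries were deposited by the authors; the submitters' processing notes name the build mm10 and the tools STAR, Cufflinks, Trim Galore and CASAVA, without versions. The table held 43496 lines, of which 59 repeated an identifier and were summed, giving 43437 genes; 27 symbols turned into dates were restored from their identifiers. FPKM are not counts, so tests ran on log2(FPKM + 1) computed here from the deposited values, which understates the change of low genes. Genes with 1 FPKM in at least 4 of 16 libraries were fitted with limma 3.58.1 in R 4.3.3 (group and cross as terms, all 16 libraries, trended variance), with Benjamini-Hochberg adjustment over 11422 genes. The difference between the changes is the double minus the Tead4 knockdown, less the Tfap2c knockdown minus the GFP control. The scripts were tested on simulated data.

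Absolute depth is unknown; the steps between low values put the libraries at 0.877 to 1.13 times the first one, with 53.2% to 59.1% of ratios at such steps, too few to recover reads. Library numbers (A1, A2, B1, B2) recur in every group. Deviations from the group means correlated across groups by 0.132, 0.231, 0.18 and 0.306 for the 4 numbers, and these hold the cross; beyond the cross the values were -0.115 in A and 0.047 in B. The numbers were therefore also fitted as a replicate block.

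The named genes are the 10 largest rises and falls that passed, moved the same way in both crosses and averaged at least 5 FPKM in either group, without clone names or pseudogenes, up to 3 genes per list by lowest p, the 5 largest differences each way, and 16 genes always looked up. Other genes were named after their values were seen. The comparison, members and 34 gene lists were chosen with earlier results of these data known; 3 more lists were added after the values were seen. Alternatives were other pseudocounts, filters, scalings and models, and each library left out in turn. No columns were left out. Some genes that these rules name are not reported here.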

Additional observations from a re-analysis of the deposited data

Results flagged for a closer look

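Over 248 pairs of a gene with values in the text and a group, 9 had 1 library that stood apart from the other 3 of its group by Dixon's test at the 95% level, which chance alone gives for about 1 pair in 20 and so for more pairs than were seen. In the double knockdown Foxh1 was highest in A2 at 1.1 FPKM, Pard6b highest in B2 at 3.21 FPKM, Rrm2b highest in A1 at 11.3 FPKM, Slc2a3 lowest in B2 at 2.83 FPKM and Spred1 lowest in B1 at 0.528 FPKM. In the Tead4 knockdown library B2 stood apart in 4 genes, lowest for Ajuba at 2.07 FPKM and Bad at 48.6 FPKM, and highest for Ctgf at 0.464 FPKM and Tmem38b at 11.9 FPKM.

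The change made by Tfap2c dsRNA differed between the Tead4-depleted and the control background (limma, adjusted p below 0.05) for 17 of the genes looked up one by one. The difference, in log2 units, was positive for S100a11 (3.93), Dab2 (2.40), Sh3d21 (2.34), Abcb1a (2.00), Akr1b8 (1.99), Clic3 (1.66), Igf2bp1 (1.36), Tmem38b (1.31), Cnn3 (0.97) and Lin28a (0.84). It was negative for Zfp771 (-2.71), Defb19 (-2.11), Ezr (-2.04), Khdc3 (-1.89), Sac3d1 (-1.85), Cdkn1a (-1.29) and Fgf3 (-1.24). Ier3 and Tekt2, named above as list members only, passed this test too (adjusted p = 0.0425 each by limma). Each of these calls was lost without 14 of the 16 libraries left out in turn (up to 0.0884 for Ier3 and 0.0996 for Tekt2).

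Of those not described above, Clic3, an intracellular chloride channel, measured 5.3, 3.54, 7.09 and 8.36 FPKM in the double knockdown, 0.721, 0.28, 0.989 and 2.25 FPKM in the Tead4 knockdown, 14.7, 12.6, 8.83 and 12.3 FPKM in Tfap2c knockdown embryos and 9.86, 6.78, 14.4 and 12.9 FPKM in the GFP control. Igf2bp1, an RNA-binding protein, averaged 26.7 ± 1.16 FPKM in the double knockdown, 8.61 ± 3.57 FPKM in the Tead4 knockdown, 28.1 ± 3.9 FPKM in Tfap2c knockdown embryos and 23.7 ± 3.37 FPKM in the GFP control (SD, n = 4 each). Tmem38b, an ion channel of the endoplasmic reticulum, averaged 33.3 ± 8.38, 9.28 ± 1.73, 48.8 ± 5.59 and 36.4 ± 3.73 FPKM in the same groups. All 3 were lowest in the Tead4 knockdown. With the replicate block the differences of Clic3, Lin28a and Sac3d1 no longer passed. On leaving out each of the 16 libraries in turn, the difference was lost 14 times for Lin28a, 13 for Clic3, 9 for Ezr and Igf2bp1, 8 for Dab2, Fgf3 and Sac3d1, and 7 for Akr1b8 and Tmem38b (adjusted p up to 0.0961, for Clic3). With no filter on low values these 9 calls were lost as well, and also those for Khdc3 and Cdkn1a.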

How the results depend on the processing

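Without the cross as a covariate the comparison called 1644 genes instead of 2712 (669 higher, 975 lower), the Tfap2c knockdown 2165 instead of 3377, both the same way 1044 instead of 1786, and the difference 7 instead of 86; of the genes looked up one by one, 21 of 122 changes and 12 of 17 differences no longer passed. Every other alternative run kept the count of changed genes between 2063 (FPKM of at least 5) and 2751 (quantile normalization), and leaving out 1 library between 2105 and 2531 (higher 935 to 1165, lower 1170 to 1428, more than 2-fold 606 to 716). With a pseudocount of 0.1, 1067 genes instead of 664 passed 2-fold. The count for the difference between the changes was unstable. It was 14 with no filter on low values, 36 with the replicate block and 12 to 113 leaving out 1 library. The difference between crosses, 0 as reported, was 69 with no filter, 2 with the 8 libraries of both groups alone and 0 to 109 leaving out 1 library, with 109 without double knockdown B2. Leaving out 1 library gave 2608 to 3158 genes for the Tfap2c knockdown, 1481 to 1732 genes called the same way in both comparisons, 71.5% to 79.7% and 59.8% to 67.5% for the shares of the sets that fell and rose, -1.08 to -1.04 for Tfap2c and 0.07 to 0.41 for Tead4. The replicate block, with 2484 genes, changed the call of 1 named gene, Sac3d1, in the comparison itself. Sign changes were seen only for genes that did not pass: Gata3 (-0.04, from -0.19 to 0.12 leaving out 1 library) became 0.12 without double knockdown A1, 0.06 without double knockdown B1 and 0.12 without Tead4 knockdown B2, and Fgf3 (0.06, from -0.08 to 0.14) became -0.08 without Tead4 knockdown B2. The causes were not tested. Libraries held 10 embryos each and their depth is unknown, which limits what can be said of low transcripts such as Ctgf, Amotl2 and Sh3d21 and of genes that did not pass.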

Other observations

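Genes of mitochondrial fatty acid oxidation were listed after the values were seen, so their count is only a description. Of 23 measured, 10 fell and 1 rose with Tfap2c dsRNA on the Tead4-depleted background (median log2 change -0.42). The shares were 43.5% lower and 4.35% higher, against 12.9% and 10.9% of all tested genes. Acaa2, the last thiolase of the spiral, measured 2.02, 1.59, 7 and 11.8 FPKM in double knockdown embryos, against 11, 13.8, 36.6 and 29.9 FPKM in the Tead4 knockdown (-2.0 ± 0.25 (SE), adjusted p = 5.19e-05 by limma). These values overlap across the crosses and not within a cross. Eci2, an isomerase for unsaturated fatty acids, measured 11.3, 6.7, 3.61 and 6.56 FPKM in double knockdown embryos, against 26, 24.4, 29.5 and 34.1 FPKM in the Tead4 knockdown (-1.95 ± 0.23, adjusted p = 3.6e-05). The related Eci1 rose (0.53 ± 0.12), and the dehydrogenase Acadl fell (-1.60 ± 0.22).

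Of 25 measured genes for the breakdown of branched-chain amino acids and ketone bodies, also listed after the values were seen, 6 fell and none rose by limma (0 calls; median -0.17), 24.0% called and so close to the 23.7% of all tested genes. Oxct1, which starts the use of ketone bodies, measured 3.25, 4.68, 12 and 29.7 FPKM in double knockdown embryos, against 35.8, 20.1, 94.8 and 111 FPKM in the Tead4 knockdown (-2.44 ± 0.26, adjusted p = 1.47e-05). Its mean in the GFP control was 28.4 ± 20.5 FPKM (SD, n = 4). Bckdhb, a subunit of the branched-chain ketoacid dehydrogenase, measured 3.83, 2.7, 4.9 and 11.1 FPKM in double knockdown embryos, against 24.4, 30.3, 31.9 and 37.3 FPKM in the Tead4 knockdown (-2.40 ± 0.26, adjusted p = 1.51e-05). Ppm1k, the phosphatase that activates this dehydrogenase (-1.62 ± 0.14), Hibch (-1.36 ± 0.15) and Bcat1 (-0.93 ± 0.09) fell as well. Among 19 measured glutathione transferases and detoxifying reductases, a list also added after the values were seen, 5 rose and 7 fell. The shares were 26.3% higher and 36.8% lower, against 10.9% and 12.9% of all tested genes. Of the 8 libraries left out in turn, the call for Gstp1 was lost without 7 and that for Gsta3 without 5. The call for Gsta1 was lost without 2 and that for Akr1b3 without 1 (adjusted p by limma up to 0.117, for Gsta3). Besides the rises of Akr1b8 and Gsta2, Gsto1 fell to 33.7 ± 35.9 FPKM in double knockdown embryos, against 158 ± 46.5 FPKM in the Tead4 knockdown (-2.79 ± 0.47). The haem oxygenase Hmox1 fell to 1.52 ± 0.579 FPKM, against 8.31 ± 1.55 FPKM in the same groups (-1.89 ± 0.23).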
